A study of Mus musculus with 6 samples.

Results

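The genes described here encode the calcium-calmodulin-dependent protein kinases and a catalytic subunit of calcineurin, in cultured mouse fetal cortical cells treated with vehicle or with the royal jelly fatty acid 10HDA. They were chosen by name, as the rows of the count table whose identifiers belong to Camk2a, Camk2b, Camk2d, Camk2g, Camkk1, Camkk2, Camk4, Camk1d, Camkv and Ppp3ca. All 10 were found among 43346 genes, and all 10 passed the filter on low counts (at least 10 CPM, counts scaled to a common library size, in at least 3 libraries), which left 10520 genes. Cells came from the cortex of fetuses at gestational day 15.5. All samples carry the labels strain Cyp19-EGFP and genotype SRY+, meaning male, whereas C57BL/6 is the strain that the study's methods give for these embryos. Treatment was vehicle (DMSO) or 1 mM 10HDA, and cultures 1, 3 and 4 each gave 1 library of each treatment, so that there were 3 libraries per group and 6 in all. The question is how these genes differed between 10HDA and vehicle.

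Libraries held 9144736 to 13367194 counts on genes, and the 10 genes had from 315 to 11176 counts per library, far above the floor of 3 counts (0.224 to 0.328 CPM). Levels below are CPM after TMM scaling, which adjusts library sizes so that most genes are level between libraries. Both libraries of culture 1 stood apart from their male label: the sum of 4 genes of the Y chromosome (Kdm5d, Ddx3y, Uty and Eif2s3y) was 9.07 CPM for vehicle and 9.30 CPM for 10HDA, and cultures 3 and 4 had 97.8 to 136 CPM. Calls are therefore also given without culture 1. Neuronal markers such as Tubb3 and Map2 were abundant, and their 9 genes summed to 6087 to 6387 CPM with vehicle and 4963 to 5588 with 10HDA. The 7 microglial markers summed to at most 1.19 CPM in any library, and the defining marker Tmem119 was at 0 in all of them.

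When calcium enters a neuron it binds calmodulin, and calcium-loaded calmodulin switches on kinases and the phosphatase calcineurin. CaMKII, assembled from subunits encoded by Camk2a, Camk2b, Camk2d and Camk2g, phosphorylates itself and so stays active after calcium has fallen, a property linked to long-term potentiation at excitatory synapses. In a separate cascade the CaMK kinases phosphorylate CaMKI in the cytoplasm and CaMKIV in the nucleus, where CaMKIV acts on CREB-dependent transcription, while calcineurin dephosphorylates NFAT and synaptic proteins.

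The CaMKII subunits share their regulatory segment, which is shown here because it is the part that calmodulin acts on, and because reads from such alike genes could be confused. The coding strand of GENCODE M21 transcripts (GRCm38) is given 5′ to 3′, with the codon of the autophosphorylated threonine in capitals and the calmodulin-binding stretch after it. It is codon 287 of Camk2b-202 (gene at chr11:5969644-6066362, minus strand) and of Camk2d-221 (chr3:126596302-126846326, plus strand), and codon 285 of Camk2g-217 (chr14:20734875-20794088, minus strand).
Camk2b: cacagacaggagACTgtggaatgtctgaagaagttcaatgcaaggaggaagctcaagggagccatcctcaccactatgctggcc
Camk2d: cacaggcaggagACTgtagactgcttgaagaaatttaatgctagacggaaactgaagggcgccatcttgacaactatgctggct
Camk2g: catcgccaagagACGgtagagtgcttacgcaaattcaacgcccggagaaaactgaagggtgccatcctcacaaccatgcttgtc
Over these 84 bases Camk2b differed from Camk2d at 17 and from Camk2g at 25, and Camk2d differed from Camk2g at 24. The 28 encoded residues differed far less, at 1, 2 and 3 positions in the same order. Reads were 50 bases long. No stretch of 50 bases in the transcripts of Camk2d or Camk2g occurred in another gene, whereas 0.159% of those of Camk2b and 0.293% of those of Camk2a did. The leading genes with these copies were Gm30698, Ralgapa2 and Clstn2 for Camk2b and Gm43686, Vwa5b2 and Olfr1291-ps1 for Camk2a. None of these is a CaMKII gene.

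Camk2a, the alpha subunit and the main CaMKII of mature forebrain excitatory neurons, was lower with 10HDA in every culture. Its level was 189 CPM in culture 1, 192 in culture 3 and 242 in culture 4 with vehicle, and 148, 158 and 154 CPM with 10HDA. Every 10HDA library lay below every vehicle library, and the vehicle library of culture 4 was the highest. Vehicle averaged 208 ± 29.8 CPM and 10HDA 154 ± 5.08 (SD, n = 3), so that the treated mean was 73.8% of the vehicle mean. In edgeR's quasi-likelihood test over all genes, with no culture term, the log2 fold change of -0.44 (SE 0.11) missed the threshold of 0.1 (adjusted p = 0.19, Benjamini-Hochberg). With culture as a block, which compares the libraries within each culture, Camk2a fell by 0.43 on the log2 scale (SE 0.096, edgeR adjusted p = 0.0069). Without culture 1 the blocked value was -0.45 (edgeR adjusted p = 0.016), and without culture 4, where the log2 ratio was -0.65 against -0.35 and -0.28 in cultures 1 and 3, it was -0.31 and lost the call (adjusted p = 0.36).

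Camk2b, the beta subunit, which tethers CaMKII to actin, was the most abundant of the 4 subunit genes per gene length. It had 867, 764 and 949 CPM with vehicle in cultures 1, 3 and 4 and 750, 744 and 821 CPM with 10HDA. Each culture was lower with 10HDA, but the groups overlapped, since treated culture 4 exceeded the vehicle library of culture 3. The log2 fold change was -0.16 (SE 0.11, edgeR adjusted p = 0.65, and 0.39 with the block).

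Camk2d, the delta subunit, known for its role in heart, was the lowest of the 4 per gene length. It was at 87.5, 86.8 and 71.4 CPM with vehicle and at 71.3, 66.9 and 65.3 CPM with 10HDA. The groups did not overlap, though the lowest vehicle library (71.36 CPM) and the highest 10HDA library (71.33 CPM) nearly met. The log2 fold change of -0.27 (SE 0.11) did not pass the test (edgeR adjusted p = 0.45, and 0.12 with the block). Camk2g, the gamma subunit, a form of which can carry calmodulin to the nucleus, had 132, 128 and 131 CPM with vehicle and 138, 130 and 126 CPM with 10HDA. These groups overlapped almost fully, with a log2 fold change of 0.0089 (SE 0.089, edgeR adjusted p = 0.98).

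**Figure D1:**
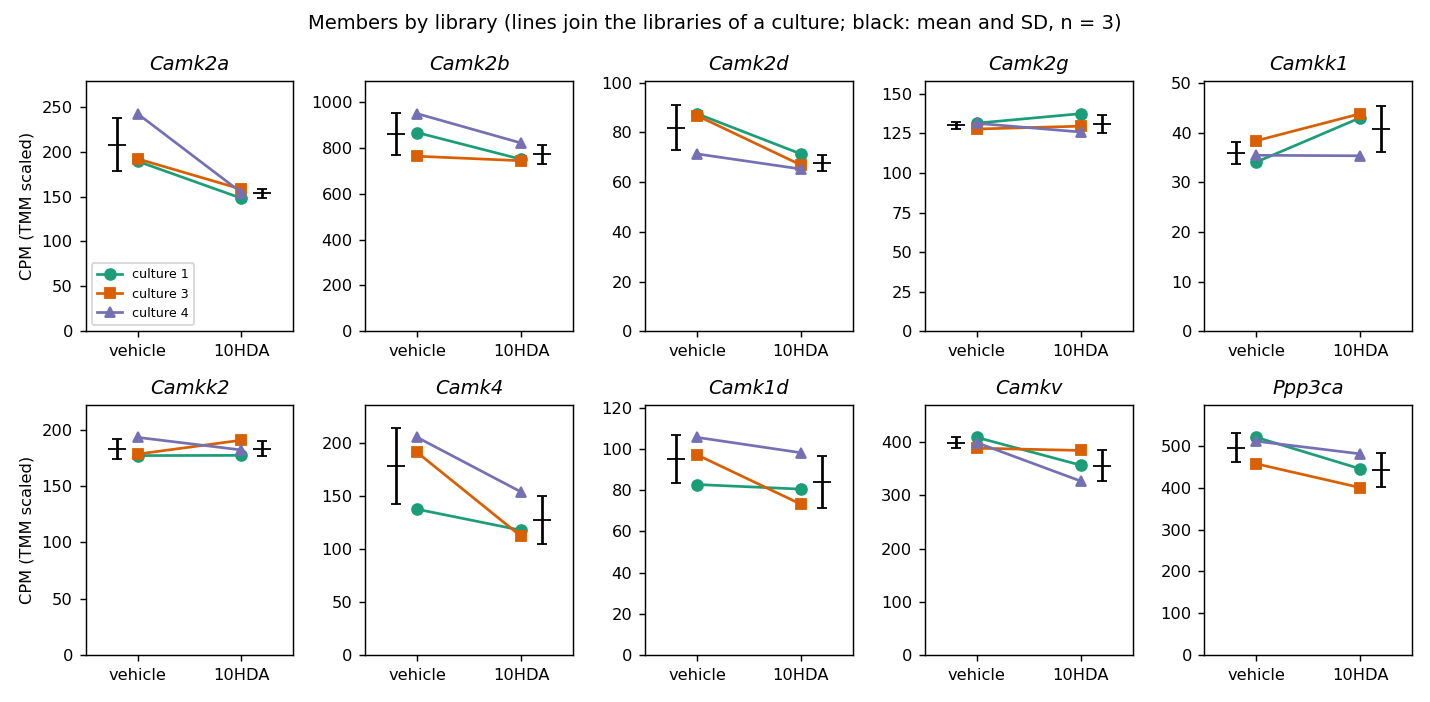
Level of each of the 10 genes (y axis, TMM-scaled CPM from 0) in the vehicle and 10HDA libraries, with lines joining the libraries of a culture and black marks for the mean and SD of 3 libraries. Camk2a lies at 189 to 242 CPM with vehicle and at 148 to 158 with 10HDA, and the lines of Camk4 fall in all 3 cultures, whereas those of Camk2g and Camkk2 stay nearly level.

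Because the subunits build 1 enzyme, each gene's share of the summed CaMKII level was compared after division by gene length. Camk2a made up 15.7%, 17.2% and 18.4% of the sum with vehicle in cultures 1, 3 and 4 and 13.8%, 14.9% and 13.9% with 10HDA. Its share was thus lower in every treated library, by 2.90 percentage points on average (17.1 ± 1.34% against 14.2 ± 0.621%, n = 3, exact two-sided permutation p = 0.1, the smallest that 3 against 3 can give). Camk2g held 22.0%, 23.1% and 20.1% with vehicle and 25.8%, 24.7% and 22.9% with 10HDA, 2.72 points more on average, higher in each of the 3 cultures, with overlapping groups (n = 3, exact permutation p = 0.2). Camk2b kept the largest share, 57.9 ± 1.67% and 58.4 ± 1.82% (n = 3, exact permutation p = 0.9), and Camk2d the smallest, 3.20 ± 0.583% and 2.94 ± 0.182% (n = 3, exact permutation p = 0.5). None of these 4 differences can pass 0.05 in this design, and the shares of a library depend on one another.

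In the CaMK cascade, Camk4, which encodes the nuclear kinase CaMKIV, was lower with 10HDA in each culture. It was at 138, 192 and 206 CPM with vehicle in cultures 1, 3 and 4 and at 118, 112 and 154 CPM with 10HDA. The groups overlapped, because vehicle culture 1 lay below treated culture 4, and the spread between cultures was wide (178 ± 35.8 CPM against 128 ± 22.7, SD, n = 3). Without a culture term the log2 fold change of -0.48 (SE 0.16) did not pass (edgeR adjusted p = 0.35). With culture as a block Camk4 fell by 0.47 (SE 0.10, edgeR adjusted p = 0.0051), and the block kept the call without culture 1 (-0.58, adjusted p = 0.0018), without culture 3 (-0.32, adjusted p = 0.036) and without culture 4 (-0.49, adjusted p = 0.081). The log2 ratios were -0.23, -0.77 and -0.42 in cultures 1, 3 and 4, so that culture 3 differed most. A short part of its exons, 2.21% in GENCODE M21, overlaps the opposite-strand gene 2310026I22Rik. That model has 3259 exon bases, whereas the count table lists 12331 for Camk4. Overlaps of the counted bases outside the M21 model were not examined.

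The genes of the upstream kinases had log2 fold changes above 0, which for Camkk2 was too near 0 to keep its sign when culture 3 was left out. Camkk1, encoding CaMKK alpha, had 34.1, 38.4 and 35.4 CPM with vehicle and 43.0, 43.8 and 35.3 CPM with 10HDA. Cultures 1 and 3 were higher with 10HDA and culture 4 was level, and the log2 fold change of 0.18 (SE 0.12) did not pass (edgeR adjusted p = 0.62, and 0.39 with the block). Camkk2, encoding CaMKK beta, which also phosphorylates AMPK, was at 177, 178 and 193 CPM with vehicle and at 177, 191 and 182 CPM with 10HDA. Its groups overlapped, with a log2 fold change of 0.0039 (SE 0.091, edgeR adjusted p = 0.99).

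Camk1d, a CaMKI kinase that CaMKK activates, had 82.8, 97.2 and 106 CPM with vehicle and 80.6, 73.2 and 98.2 CPM with 10HDA. It was lower in every culture, most in culture 3, as was Camk4, but the groups overlapped and the log2 fold change of -0.18 (SE 0.13) did not pass (edgeR adjusted p = 0.64, and 0.31 with the block). The 3 other CaMKI genes, Camk1, Camk1g and Pnck, had no call in either fit. For Camk1g, singled out after its values were seen, the 10HDA libraries (55.5 to 63.3 CPM) all exceeded the vehicle libraries (52.8 to 54.7 CPM). It was the only 1 of the 32 tested genes of the wider pathway with this pattern. Over all tested genes 13.4% had groups without overlap in either direction, 7.44% as lower with 10HDA.

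Camkv encodes a kinase-like protein of synaptic vesicles and dendritic spines that binds calmodulin and has no kinase activity. It was at 409, 389 and 399 CPM with vehicle in cultures 1, 3 and 4 and at 357, 384 and 327 CPM with 10HDA. Every 10HDA library was below every vehicle library, although culture 3 hardly differed. The log2 fold change was -0.16 (SE 0.098, edgeR adjusted p = 0.58, and 0.33 with the block).

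Ppp3ca, the alpha catalytic subunit of calcineurin and its main form in brain, had 522, 458 and 512 CPM with vehicle and 446, 401 and 482 CPM with 10HDA. Each culture was lower with 10HDA by a log2 ratio of -0.23, -0.19 and -0.09, and the groups overlapped (log2 fold change -0.17, SE 0.11, edgeR adjusted p = 0.61, and 0.32 with the block). Of the other catalytic subunits, Ppp3cb, the beta form, had 369, 369 and 379 CPM with vehicle and 350, 322 and 376 with 10HDA (log2 fold change -0.092, edgeR adjusted p = 0.75). Ppp3cc, the gamma form, was at 24.1 to 35.6 and 23.5 to 35.5 CPM (log2 fold change -0.083, edgeR adjusted p = 0.89). Ppp3r1, the calcium-binding regulatory subunit, was at 183, 171 and 135 CPM with vehicle and at 190, 166 and 182 with 10HDA (log2 fold change 0.14, edgeR adjusted p = 0.70, and 0.037 on the log2 scale without vehicle culture 4), and 14.3% of its exon bases are shared with Wdr92 on the same strand. None of the 3 passed in either fit, and Ppp3r2, the testis form, had at most 0.275 CPM.

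Per gene length, Ppp3ca held 55.0%, 53.0% and 53.4% of the calcineurin catalytic sum with vehicle and 52.8%, 52.6% and 52.0% with 10HDA. The treated libraries were lower without overlap, by 1.31 percentage points (n = 3, exact permutation p = 0.1, the smallest possible), and by 0.719 without vehicle culture 1. Ppp3cb held 36.9 ± 1.86% and 37.9 ± 0.782%, and Ppp3cc 9.28 ± 1.30% and 9.61 ± 1.11% (SD, n = 3), with overlapping groups.

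**Figure D2:**
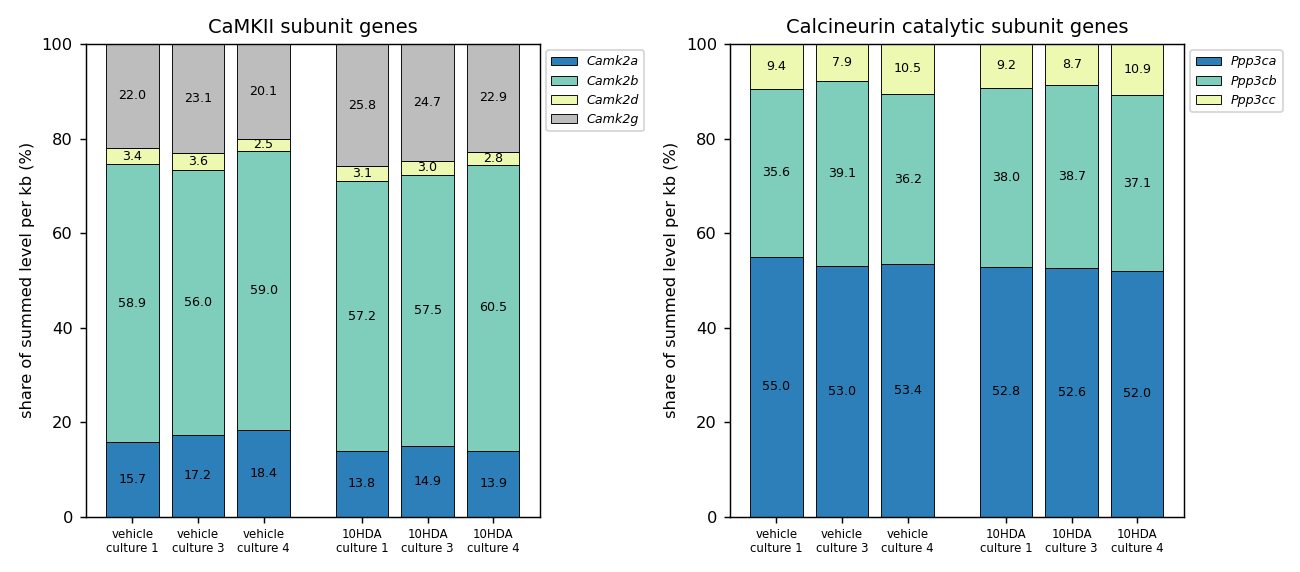
Share (y axis, %) of each CaMKII subunit gene (left) and calcineurin catalytic subunit gene (right) in the summed level per kb of gene length, 1 bar per library. Camk2a takes 15.7% to 18.4% of the CaMKII bars with vehicle and 13.8% to 14.9% with 10HDA, while Camk2b stays near 58% and Ppp3ca above 52%.

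Over the 10 genes, none passed the threshold without a culture term, where 0.627% of all tested genes did (0.428% as lower with 10HDA). Those calls were 21 higher and 45 lower, or 21 and 24 with scaling by library size alone. Of the 10 genes 0 passed with limma-voom, and 1 (Camk2a) with DESeq2 and with edgeR's likelihood ratio test. Over all tested genes limma-voom called 21 higher and 45 lower, DESeq2 58 and 112, and the likelihood ratio test 66 and 152. With culture as a block 2 of 10 passed, Camk2a and Camk4, both lower, and so did 8.98% of all tested genes, 5.08% as lower. The blocked calls were 411 higher and 534 lower, or 949 and 316 with library size alone, where Camk2a and Camk4 were still called as lower. At an unadjusted p under 0.05 without the block 3 of 10 were lower, Camk2a, Camk2d and Camk4, against 5.67% of tested genes. The groups did not overlap and were lower with 10HDA in 3 of 10, Camk2a, Camk2d and Camkv, against 7.44% of tested genes. All 3 cultures were lower for 7 of 10, against 21.0%, and 7 of 10 log2 fold changes were below 0, against 52.1%. The median log2 fold change of the 10 was -0.17, and that of all tested genes was -0.0095. In bulk samples fewer cells of a type and less RNA per cell cannot be told apart.

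Markers of several cell types also differed between the groups, and their part in these results was not tested. Of 9 neuronal markers 8 had a log2 fold change below 0, among them Snap25, Syt1, Rbfox3 and Elavl4, which fell with culture as a block, and the summed levels given above did not overlap. The 8 markers of excitatory neurons, the cells in which Camk2a is mainly made, summed to 1191 to 1458 CPM with vehicle and 1119 to 1318 with 10HDA, and 6 of them were below 0. Slc17a7, the vesicular glutamate transporter of cortical neurons, had 65.7, 70.4 and 75.2 CPM with vehicle and 50.2, 57.2 and 50.5 CPM with 10HDA, and fell with the block (log2 fold change -0.42, edgeR adjusted p = 0.013). Without culture 1 the blocked values were -0.42 for Slc17a7 (edgeR adjusted p = 0.050), -0.33 for Snap25, -0.35 for Syt1, -0.41 for Rbfox3 and -0.32 for Elavl4, all still called (adjusted p of at most 0.094). The 10 interneuron markers summed to 558 to 691 CPM with vehicle and 468 to 630 with 10HDA, with 9 below 0. With the block 5 of them fell, Dlx1, Dlx2, Dlx6os1, Sst and Npy. Of these only Dlx6os1 kept its call without culture 1 (edgeR adjusted p = 0.068). For astrocytes, 7 of 8 tested markers were below 0, and all 10 summed to 1194 to 1486 and 912 to 1147 CPM. Gfap, Aldh1l1 and Aldoc passed as lower even without a culture term (log2 fold change -1.28, -1.02 and -0.81, edgeR adjusted p = 0.043, 0.023 and 0.019). Sox9 was the only tested astrocyte marker above 0 (0.062). No neuronal, excitatory or interneuron marker passed without a culture term. The 7 endothelial and pericyte markers summed to 34.5 to 39.6 and 16.9 to 22.9 CPM. Most of this sum was Pdgfrb and Cspg4, the only 2 tested, and Cspg4 also counts among the oligodendrocyte lineage markers below. Both passed as lower without a culture term (log2 fold change -1.07 and -0.92, edgeR adjusted p = 0.043 for each). The endothelial genes Cldn5, Pecam1, Flt1 and Kdr and the pericyte gene Rgs5 had at most 1.27 CPM in any library. The 8 oligodendrocyte lineage markers summed to 343 to 431 and 262 to 373 CPM, and Pdgfra, Sox10 and Cspg4 fell with the block, also without culture 1. The sum of the 6 intermediate progenitor markers went the other way, with 52.5 to 70.7 CPM with vehicle and 79.5 to 117 with 10HDA. Of these markers 3 were tested, Btg2, Insm1 and Gadd45g, all with a log2 fold change above 0. Btg2 and Insm1 rose with the block, also without culture 1. Of those not tested, Eomes averaged 2.52 CPM with vehicle and 2.63 with 10HDA, and Neurog2 3.57 and 5.03. Neurog1 had at most 0.085 CPM. The 8 radial glia markers summed to 789 to 959 and 729 to 816 CPM. Among them Fabp7 fell by 0.41 with the block (edgeR adjusted p = 0.0067) and Vim rose by 0.32 (adjusted p = 0.041), both also called without culture 1. The 6 markers of dividing cells summed to 175 to 214 and 171.5 to 229 CPM, with no call in either fit. The 5 meningeal fibroblast markers, none of them tested, summed to 10.1 to 12.45 and 6.49 to 6.84 CPM.

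Calmodulin, the calcium sensor of all these enzymes, is encoded by a small gene family. The first 30 codons of its members Calm2 and Calm3 are shown because these genes code for the same protein in different letters. The bases, 5′ to 3′ on the coding strand (GENCODE M21, GRCm38), are in capitals where the pair differ. The genes lie at chr17:87433412-87446935 (Calm2, minus strand) and chr7:16915379-16924114 (Calm3, minus strand).
Calm2: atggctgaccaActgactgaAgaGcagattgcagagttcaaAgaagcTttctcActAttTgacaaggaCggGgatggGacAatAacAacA
Calm3: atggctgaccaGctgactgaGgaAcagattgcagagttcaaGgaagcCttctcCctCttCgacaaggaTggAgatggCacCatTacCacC
Over the whole reading frame 78 of 447 positions differed, 74 of them at the third position of a codon, and the translations of 149 residues differed at 0. Of the 50-base stretches of Calm2 9.72% also occur in pseudogenes, and of those of Calm3 2.52%.

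Calm2 and Calm3 were lower with 10HDA in every culture, with no overlap between groups. Calm2 had 495, 402 and 427 CPM with vehicle and 386, 348 and 340 with 10HDA, and fell by 0.30 with the block (edgeR adjusted p = 0.053, and 0.40 without). Calm3 had 1544, 1273 and 1441 CPM with vehicle and 1109, 1143 and 1161 with 10HDA, and fell by 0.31 with the block (edgeR adjusted p = 0.054, and 0.38 without). Without culture 1 neither kept its call in the blocked fit (Calm2 -0.25, edgeR adjusted p = 0.18, and Calm3 -0.22, adjusted p = 0.25), and without culture 4 neither did (adjusted p = 0.45 and 0.35).

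Nrgn encodes neurogranin, a postsynaptic protein that holds calmodulin by its IQ motif when calcium is low. It was at 92.5, 92.0 and 99.4 CPM with vehicle in cultures 1, 3 and 4 and at 58.5, 69.4 and 50.1 CPM with 10HDA. All treated libraries were below all vehicle libraries, and culture 4 differed most, with a log2 ratio of -0.99 against -0.66 and -0.41. Nrgn fell by 0.67 on the log2 scale (SE 0.12, edgeR adjusted p = 0.050), the only 1 of the 32 tested genes of the wider pathway to pass without a culture term. With the block it fell by 0.68 (edgeR adjusted p = 0.00026), and by 0.67 without culture 1 (adjusted p = 0.0020). Without the block, the call was lost when culture 1 was left out (log2 fold change -0.66, edgeR adjusted p = 0.40).

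Gap43, the growth cone protein that holds calmodulin in axons, had 1110, 998 and 1022 CPM with vehicle and 786, 822 and 873 CPM with 10HDA. Its groups did not overlap, and it fell by 0.33 with the block (edgeR adjusted p = 0.037, and 0.30 without), a call lost without culture 1 (-0.24, adjusted p = 0.20) or culture 4 (-0.38, adjusted p = 0.20). The remaining IQ proteins, Pcp4 and Pcp4l1, had at most 4.58 CPM and were not tested.

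Camk2n1 and Camk2n2 encode natural inhibitors of CaMKII. Camk2n1 had 143, 136 and 107 CPM with vehicle and 107, 129 and 78.3 CPM with 10HDA, and Camk2n2 had 77.3, 86.8 and 67.7 CPM with vehicle and 102, 112 and 66.3 CPM with 10HDA. Both had overlapping groups. Camk2n1 was lower in every culture and fell by 0.31 with the block (edgeR adjusted p = 0.058, and 0.57 without), whereas Camk2n2 was higher in cultures 1 and 3 and had a log2 fold change of 0.28 that passed in neither fit (edgeR adjusted p = 0.60, and 0.16 with the block). The call of Camk2n1 was lost without culture 1 (-0.24, edgeR adjusted p = 0.28) or culture 4 (-0.24, adjusted p = 0.57). Of the phosphatases that reverse CaMK phosphorylation, Ppm1e had a log2 fold change of -0.14 (edgeR adjusted p = 0.68) and Ppm1f of 0.20 (edgeR adjusted p = 0.61), neither called in either fit.

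Of 6 tested calcineurin regulators and anchors, 5 had a log2 fold change below 0 and 1 was called. Rcan2, which binds and restrains calcineurin, had 34.8, 37.3 and 33.5 CPM with vehicle and 30.6, 26.2 and 27.8 CPM with 10HDA. The groups did not overlap, and Rcan2 fell by 0.32 with the block (edgeR adjusted p = 0.094, and 0.40 without), a call lost when any culture was left out (adjusted p from 0.13 to 0.37). Rcan1, Rcan3, Cabin1, Akap5 and Fkbp1a had no call. Among 7 tested transcription factors and coactivators controlled by calcineurin, only Mef2c, a neuronal activator, was called. It had 603, 728 and 877 CPM with vehicle and 560, 524 and 713 CPM with 10HDA, with overlapping groups, and fell by 0.29 with the block (edgeR adjusted p = 0.074, and 0.53 without). The call held without culture 1 (-0.37, adjusted p = 0.032) and was lost without culture 3 (-0.20, adjusted p = 0.31) or culture 4 (-0.28, adjusted p = 0.45). None of 5 tested other calmodulin-dependent kinases (Eef2k, Dapk1, Dapk3, Phkg2 and Cask) passed.

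Of 42 further genes of the pathway 32 were tested. Those called without a culture term numbered 1 lower and 0 higher, against 0.428% of all tested genes as lower, and with the block 7 lower and 0 higher, against 5.08% as lower. The 7 were Calm2, Calm3, Nrgn, Gap43, Camk2n1, Rcan2 and Mef2c. Over all 32 the median log2 fold change was -0.085, with 21 below 0 (52.1% of all tested genes) and 5 lower without overlap (7.44%). With scaling by library size alone the blocked fit called 2, Nrgn as lower and Camk2n2 as higher, and Calm2 and Calm3 still had values below 0. The 10 genes not tested had at most 8.92 CPM in any library, and 1 of them, Ppia, shares 17.3% of its 50-base stretches with 118 other genes.

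**Figure D3:**
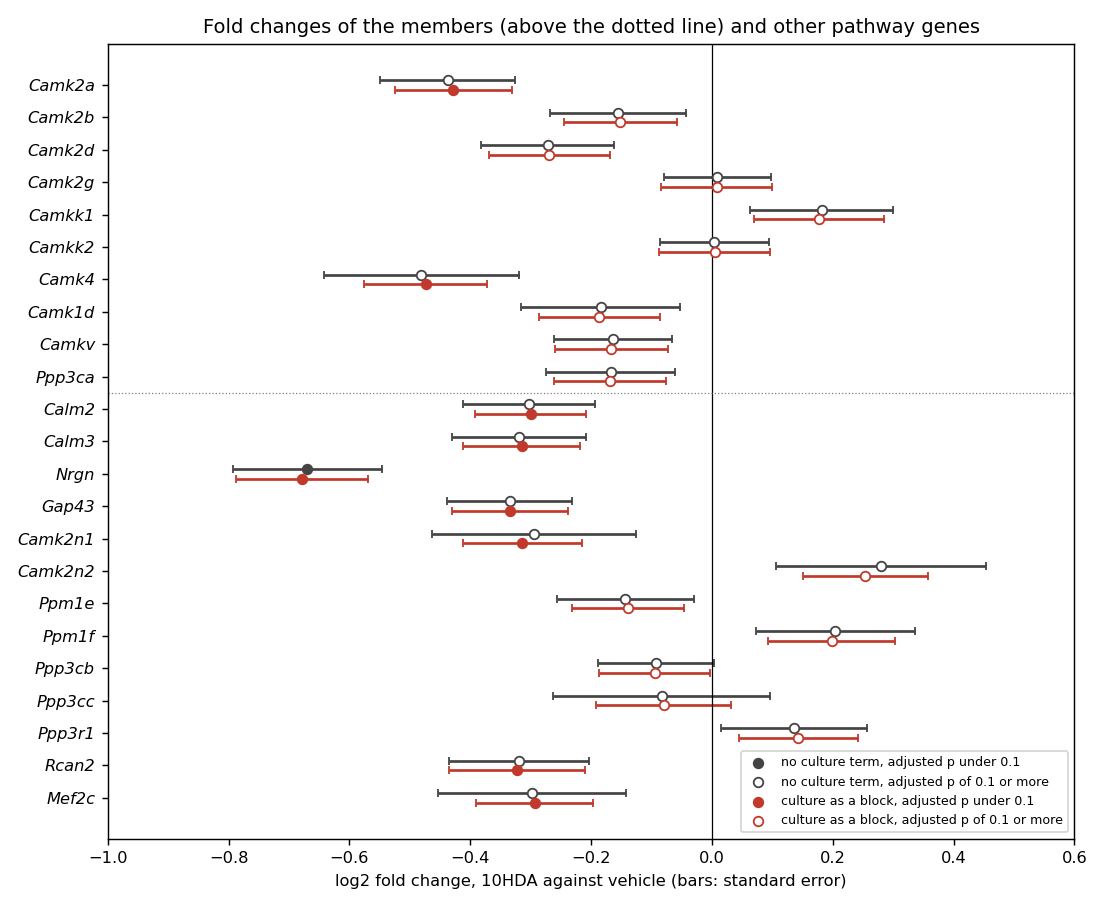
Log2 fold change of 10HDA against vehicle (x axis) with its standard error for the 10 genes (above the dotted line) and named pathway genes, without a culture term (black) and with culture as a block (red), with filled points where the adjusted p is under 0.1. Camk2a and Camk4 are filled with the block only, at -0.43 and -0.47, and Nrgn is filled in both fits.

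**Figure D4:**
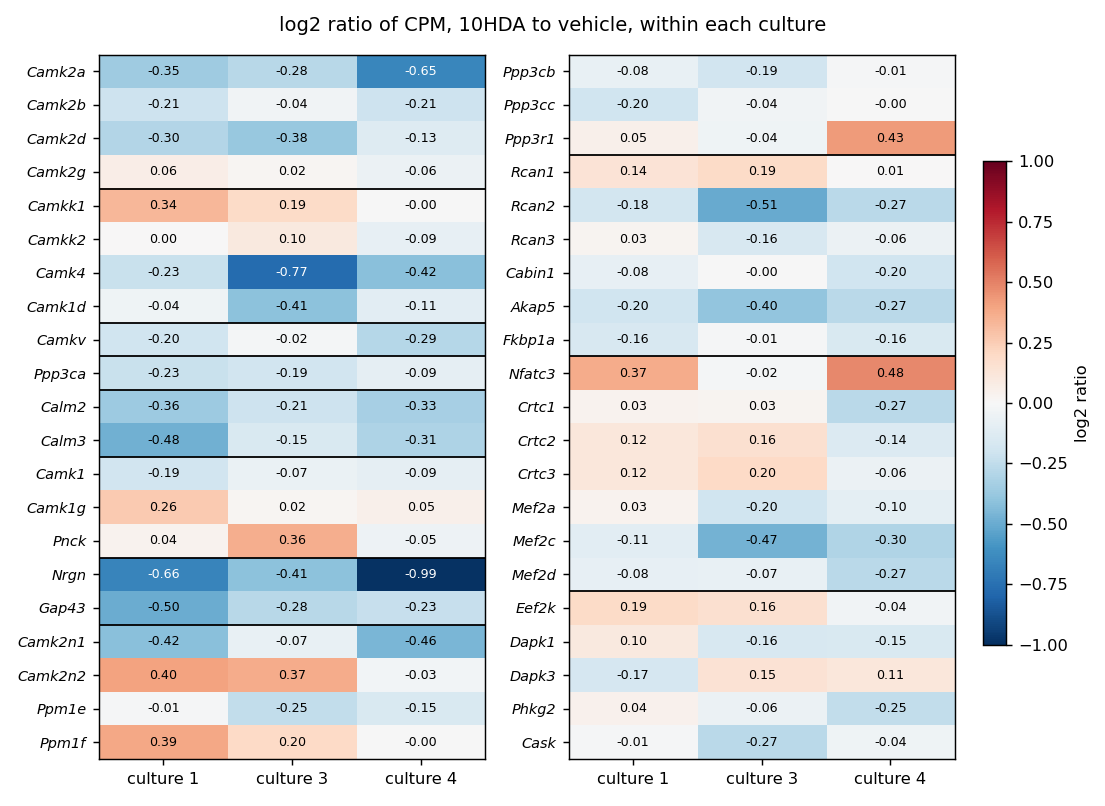
Log2 ratio of CPM, 10HDA to vehicle, within each culture (columns) for the 10 genes and the 32 tested pathway genes (rows, grouped by role), with blue for lower and red for higher with 10HDA. Camk2a, Camk4, Calm2, Calm3 and Nrgn are blue in all 3 cultures, and the lowest ratio is that of Nrgn in culture 4 (-0.99).

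Compared per kb of the gene length listed in the count table, the levels with vehicle ran from Camkv at 111 ± 2.82 CPM per kb (SD, n = 3) down to Camk2d at 5.14 ± 0.573. Camk2b (94.2 ± 10.2) and Ppp3ca (90.2 ± 6.22) came next and overlapped. Camkk2 (37.8 ± 1.85), Camk2g (35.2 ± 0.575) and Camk2a (27.9, with an SD of 3.995) followed without overlap between neighbours. Camk4 (14.5 ± 2.91) and Camk1d (12.8 ± 1.56) overlapped, and Camkk1 (9.64 ± 0.589) lay below them. With 10HDA the order was the same except that Camk4 (10.4 ± 1.84) came after Camk1d (11.3 ± 1.73) and Camkk1 (10.9 ± 1.26), all 3 overlapping, and that Camkk2 (37.9 ± 1.41) and Camk2g (35.4 ± 1.60) overlapped. This order depends on the gene models, whose lengths differ between the count table and GENCODE M21 for Camk4 (12331 and 3259 bases), Camkk2 (4843 and 10921), Camk2g (3703 and 6401), Ppp3ca (5512 and 9981) and Camk2d (15928 and 22493). With the M21 lengths the vehicle levels were 54.7 CPM per kb for Camk4, 49.8 for Ppp3ca, 20.4 for Camk2g and 16.8 for Camkk2, so that Camk4 rather than Ppp3ca came after Camk2b, and Camk2g and Camkk2 came below Camk2a (27.9). Camkv stayed the highest and Camk2d the lowest with these lengths in both groups. The subunit shares rest on the same lengths.

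Across the 6 libraries Camk4 and Camk1d were the most alike pair of the 10 genes (Pearson's r = 0.94 of log2 CPM), and Camkk1 and Ppp3ca the most opposed (r = -0.93). Of all tested genes, those most like Camk2a were St3gal1 (r = 0.998), Zfp668 (0.998) and Men1 (0.992), and those most like Camk4 were 1500004A13Rik (0.999), Mgat5 (0.998) and Hspa12a (0.996). For Camk2b they were Ybx1, Sfswap and Gm8494, for Camk2d Nrsn1, Cds1 and Spata5, and for Camk2g Trmt10c, Eed and Pip4k2c. For Camkk2 they were Elk1, Boc and Rgp1, for Camk1d Slc35f1, Lsamp and Tecpr2, and for Ppp3ca Hnrnpd, Fam213a and Copb2. These values describe 6 libraries that differed in culture, treatment and depth, and carry no test.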

How the data were processed

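RNA from 3 primary cortical cultures, each treated with vehicle and with 10HDA (6 libraries), was sequenced as 50-base single-end reads from strand-specific libraries. The authors mapped the reads, without trimming, to mm10 by Subjunc 1.4.4 (Subread package), then obtained counts per gene from featureCounts and Gencode models. The deposited values are raw counts, neither normalized nor filtered, and the strand setting of the counting is not given in the sources used here. Symbols came from GENCODE M21 (GRCm38) and matched 98.0% of identifiers. The number of further sample columns was 0.

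The 10520 genes that reached 10 CPM in 3 or more libraries were compared with edgeR 4.0.16 in R 4.3.3 (TMM scaling, glmQLFit and glmQLFTest) without a culture term. P-values were adjusted by Benjamini-Hochberg over all genes tested, with a threshold of 0.1, as in the methods of the study. The standard error was taken as log2 fold change over the root of F. Values are TMM-scaled CPM with SD over 3 libraries, and ratios within a culture are 10HDA to vehicle. Shares were compared by an exact two-sided permutation test. Levels between genes were compared per kb of the length in the table. Limits from counts cover counting error only. The scripts were tested on simulated data.

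The labels place 1 library of each treatment in each culture, so the numbers pair the libraries. Deviations from the group means correlated across genes at 0.37, 0.24 and 0.62 within cultures 1, 3 and 4 and at -0.45 to 0.18 between cultures. edgeR's common dispersion corresponded to a coefficient of variation of 0.12 without and 0.085 with the block.

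The 10 genes are all named. Of the other pathway genes, the calmodulin genes reported, calcineurin subunits, CaMKII inhibitors and CaMK phosphatases are named, with any gene past the threshold in either fit, and for likeness the 3 genes with the highest correlation of log2 CPM (prior count 2). A gene of the pathway lists, left out of their counts, and the likeness of Camkk1 and Camkv are not reported here. The genes and lists were chosen with earlier results of these data known. Alternatives were other scalings, filters and tests (limma 3.58.1, DESeq2 1.42.0), the culture block, and each library and culture left out. The blocked fits with a culture left out or with library size alone, and the M21 lengths, were added after seeing the data.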

Additional observations from a re-analysis of the deposited data

How the results depend on the processing

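The number of the 10 genes past the threshold, 0 without a culture term, was 2 with culture as a replicate block (Camk2a and Camk4), 2 with no filter on low counts, 1 with DESeq2 (Camk2a, adjusted p = 0.052), 1 with edgeR's likelihood ratio test (Camk2a, adjusted p = 0.036) and 0 to 1 with a library or culture left out, where Camk4 passed without vehicle replicate 1 (adjusted p = 0.098) and without 10HDA replicate 4 (adjusted p = 0.075). With no filter 294 of 26859 tested genes were called higher and 342 lower. DESeq2 called 58 and 112 of 10520, and the likelihood ratio test 66 and 152. Without vehicle replicate 1 the calls were 30 higher and 76 lower, and without 10HDA replicate 4 they were 176 and 174. With the block the number of the 10 genes was 2 without culture 1, 2 without culture 3, 1 without culture 4 (Camk4) and 2 with scaling by library size alone. The same blocked fits called 281 higher and 430 lower of all tested genes, 507 and 643, 133 and 144, and 949 and 316. The 1 further pathway gene past the threshold became 7 with the replicate block, 2 with DESeq2 (Nrgn and Gap43), 0 with library size alone, and 0 to 2 with a library or culture left out. Nrgn lost its call without vehicle replicate 3 or 4, without 10HDA replicate 1 and without each culture (adjusted p from 0.14 to 0.40), and Camk2n2 passed without 10HDA replicate 4. With the block the pathway count was 2 without culture 1 (Nrgn and Mef2c), 6 without culture 3 (Nfatc3 with 5 of the 7), 1 without culture 4 (Nrgn), and 2 with library size alone (Nrgn and Camk2n2).

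Over 23 alternatives the log2 fold change ran from -0.51 to -0.29 for Camk2a, from -0.63 to -0.32 for Camk4, from -0.34 to -0.19 for Camk2d, from -0.24 to -0.086 for Camkv, from -0.23 to -0.093 for Ppp3ca, from -0.21 to -0.060 for Camk2b, from -0.31 to -0.073 for Camk1d and from 0.12 to 0.27 for Camkk1. Genes near 0 changed sign: Camk2g (-0.027 to 0.086, with -0.0027 without culture 1, -0.0026 in its blocked fit and at most 0.049 with any library or culture left out), Camkk2 (-0.043 to 0.082, with -0.026 without 10HDA replicate 3, up to 0.065 with another library left out, and -0.042 with the block without culture 3) and Ppp3cc (-0.25 to 0.062, with 0.048 without 10HDA replicate 3). The cause of these changes was not tested. The share differences of Camk2a and Ppp3ca moved by less than the SD of the vehicle libraries under every alternative run, but by more than that of the 10HDA libraries without vehicle replicate 1 (-3.60 and -0.72 points, against -2.90 and -1.31) and, for Camk2a, without vehicle replicate 4 (-2.26 points).

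Scaling by library size alone called 21 genes higher and 24 lower of all tested (main 21 and 45), and with the block 949 higher and 316 lower (411 and 534 with TMM). With 3 libraries a group, exact permutation tests have 0.1 as their smallest p.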
